A study of Mus musculus with 4 samples.

Results

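Expression of the SCUBE genes and of the core genes of the Hedgehog pathway was examined in mouse breast cancer cells that carry or lack Pak1, a kinase activated by Rac and Cdc42. The array probes named Scube1, Scube2, Scube3, Shh, Ihh, Ptch1, Smo, Gli1 or Gli2 were taken, which gave 13 of the 39429 non-control probes and 9 of the 31829 genes named on the array. The cells were derived from mammary tumours of MMTV-Neu mice, whose mammary epithelium expresses the Neu (Her2) oncogene from the mammary tumour virus promoter. There were 2 samples of genotype Pak1-/- and 2 of genotype Pak1+/+, each grown in low calcium medium with 5% horse serum, serum starved for 3 h and given EGF for 15 min, so that both groups share the Neu transgene and the EGF stimulus. The series describes separate tumours within each group, whereas the study's methods speak of cell lines, and neither strain nor animal age was given in the sources used here. RNA was hybridised to single-colour Agilent mouse arrays with 60-base probes.

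Hedgehog ligands are lipid-modified proteins that leave the producing cell with the help of Dispatched and of the secreted SCUBE proteins. On a receiving cell they bind Patched (Ptch1), which otherwise holds the transducer Smoothened (Smo) inactive. Active Smo gathers in the primary cilium and turns on the GLI transcription factors, whose targets include Ptch1 and Gli1 themselves. In the mammary gland the pathway is known for its part in bud and duct development, and Scube1 is best known from endothelial cells and platelets.

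Pak1 itself was not lower in the samples labelled Pak1-/-, where both values lay above those of the samples labelled Pak1+/+. Its probe gave a normalized log2 intensity of 12.23 ± 0.03 in Pak1-/- samples and of 12.04 ± 0.002 in Pak1+/+ samples (SD, n = 2), a difference of 0.19 (limma adjusted p = 0.070). Which part of the gene was deleted is not given in the sources used here, so the probe may lie outside it, and every direction below rests on the sample labels.

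Scube1 and Scube3 were bright in both samples labelled Pak1-/- and not above background in either sample labelled Pak1+/+, while Scube2, the third family member, was measured at similar levels in both groups. Ptch1 was modestly higher and Smo slightly lower in Pak1-/- cells, although a second Smo probe did not share that difference. The ligand Shh and the transcription factors Gli1 and Gli2 were not well above background in any sample. The members were chosen with this contrast in view, so their values are a description and carry no test. By the call used for all genes (limma, adjusted p under 0.05, brightest probe of a gene), 3 of the 6 member genes that could be tested were higher in Pak1-/- and 1 was lower, where 51.0% of all 21961 genes tested were called, 22.8% higher and 28.2% lower. Nothing is read from this count, since Scube1 and Scube3 passed the filter on dim signal only through the arrays where they were high, and with signal required on all 4 arrays 1 member gene was higher. For 5 of the 6 all values of a group lay on 1 side of the other group, as they did for 77.6% of all genes.

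The starts of the Scube1, Scube3 and Smo probes are shown, since these genes gave the widest differences or probes that disagreed. Each is the first 30 of 60 bases, 5′ to 3′, as given in the array files, and capitals mark a run of CA repeats.
Scube1 A_55_P2299524: gttgacatatcaagttaacccactgaaggg
Scube3 A_55_P2167530: gtggtacacagagtattttgcacttgggga
Scube3 A_55_P2167525: tacacagagaaacacaaggagatgctgcca
Smo A_51_P258766: aatgtctagtcattttcatagtgccccaca
Smo A_55_P2121484: taaaactgcaatgagCACACACAgacacac
The Scube1 probe and the brighter Scube3 probe each had a GC content of 35%, at the 5th percentile of all non-control probes (35%, with a median of 41.7%). The second Smo probe held 18 CA dinucleotides, where the first held 8, and it was the only member probe with the run CACACACA, which 0.426% of all probes hold. Whether a probe lies in coding sequence or in the tail of its transcript was not determined here.

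Scube1 encodes a secreted and membrane-associated protein with EGF-like repeats and a CUB domain. Its probe (mm9 chromosome 15, 83435445 to 83435504, minus strand) gave normalized log2 intensities of 14.84 and 14.39 in the Pak1-/- samples and of 6.08 and 6.66 in the Pak1+/+ samples. The groups were far apart. Both Pak1+/+ values lay below the lowest signal of the probes well above background on those arrays (6.70 and 7.03). Before any correction the spot read 27289 and 22063 in Pak1-/- cells over a local background of 38.0 and 39.5, and 64.1 and 93.3 in Pak1+/+ cells over 51.0 and 44.0. Group means were 14.61 ± 0.32 and 6.37 ± 0.41 (SD, n = 2), a difference of 8.24 (SE 0.25). Because the probe was not well above background on either Pak1+/+ array, the ratio is a bound: Scube1 was at least 215-fold higher in Pak1-/- cells. This difference is the value that led to its choice.

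Scube3 encodes a secreted family member that binds Hedgehog ligands and growth factors, and it had 2 probes. The brighter one (mm9 chromosome 17, 28311682 to 28311741, plus strand) gave log2 intensities of 13.14 and 12.81 in Pak1-/- samples and of 6.23 and 6.30 in Pak1+/+ samples. As for Scube1, the Pak1+/+ values were those of background, and Scube3 was at least 69.0-fold higher in Pak1-/- cells, with a measured difference of 6.71 (SE 0.13). The other probe (28308201 to 28308260) gave 10.32 and 10.02 against 6.43 and 6.46, at least 9.87-fold higher. Both probes thus had the same pattern of 2 bright and 2 dim arrays, with different sizes. The authors' log2 table held no value for the brighter probe, so that Scube3 rested there on the second probe alone.

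Scube2, which promotes the release of Shh from producing cells, was above background in every sample. Its brighter probe gave 8.74 and 8.47 in Pak1-/- samples and 8.52 and 8.34 in Pak1+/+ samples. These ranges overlapped, and the difference was 0.17 (SE 0.12). The second probe differed by 0.09 (SE 0.08), with 7.53 and 7.41 against 7.40 and 7.36. The 3 family members therefore did not share a pattern: Scube1 and Scube3 had 2 bright and 2 dim arrays, and Scube2 had signal on all 4.

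**Figure D1:**
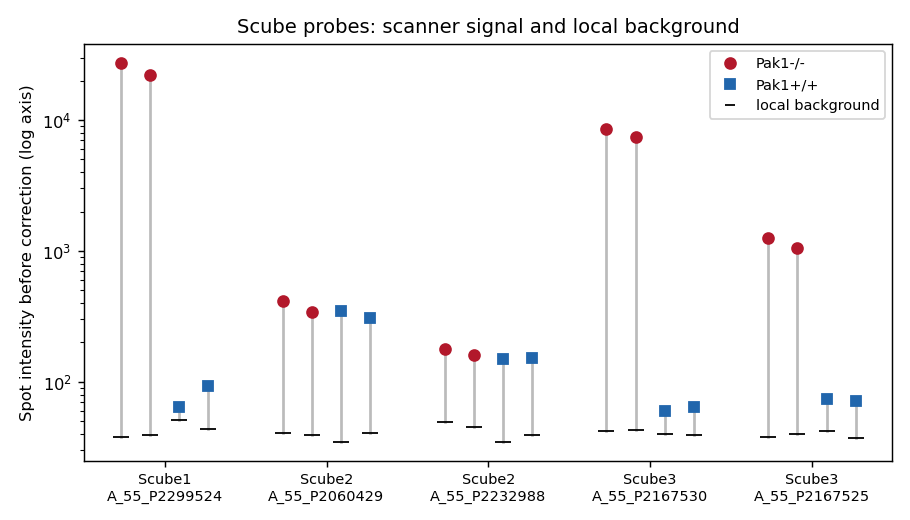
Spot intensity of the 5 Scube probes as scanned, on a log axis, for each of the 2 Pak1-/- arrays (circles) and 2 Pak1+/+ arrays (squares), with the local background of each spot as a black dash. The Scube1 and Scube3 spots stand far above their background on the Pak1-/- arrays and lie between 60.4 and 93.3 on the Pak1+/+ arrays, whereas the Scube2 spots read alike in both groups.

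Among the ligands, Shh was measured by a probe printed in 10 spots, which makes it the best replicated member on each array. None of the 10 spots was well above background on any array. The median spot read 48.3 and 46.7 in Pak1-/- samples and 50.5 and 49.1 in Pak1+/+ samples, over local backgrounds of 31.5 to 48.0, so that Shh was not detectable in these cells at this signal. Ihh, the ligand best known from cartilage, read 6.75 and 6.79 against 6.83 and 6.80 on the log2 scale. It was well above background on both Pak1-/- arrays and on 1 Pak1+/+ array, and the difference of -0.05 (SE 0.07) was smaller than its error.

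Ptch1, the Hedgehog receptor and a target of its own pathway, had 2 probes. The brighter one (mm9 chromosome 13, 63612879 to 63612938, minus strand) gave 9.69 and 9.67 in Pak1-/- samples and 8.83 and 9.02 in Pak1+/+ samples. Both Pak1-/- values were the higher ones, with a difference of 0.75 (SE 0.09). The second probe gave 7.39 and 7.27 against 7.12 and 7.04, a difference of 0.25 (SE 0.08) in the same direction that was not called. Smo, the transducer, had a bright probe (mm9 chromosome 6, 29711225 to 29711284, plus strand) with 15.06 and 14.97 in Pak1-/- samples and 15.27 and 15.24 in Pak1+/+ samples, a difference of -0.24 (SE 0.07). The second Smo probe, the one with the CA repeat shown above, gave 13.30 and 12.87 against 13.10 and 12.88, and its ranges overlapped (0.09, SE 0.17). The Smo call was lost in 13 of 18 alternative analyses, with differences of -0.12 under cyclic loess scaling, -0.08 as the mean over probes and -0.29 to -0.20 in the others.

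Gli1, the GLI factor that is itself switched on by the pathway, gave 6.41 and 6.30 in Pak1-/- samples and 6.38 and 6.38 in Pak1+/+ samples. Gli2, the main activator among the GLI factors, gave 6.14 and 6.20 against 6.09 and 6.51. Neither was well above background on any array, so no level or direction can be given for them. In all, 10 of the 13 member probes passed the filter on dim signal (well above background on at least 2 arrays), and the 3 that did not were those of Shh, Gli1 and Gli2. The median difference over the 6 genes that passed was 0.46, beside -0.05 over all genes tested, and it includes the genes for which the set was chosen.

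**Figure D2:**
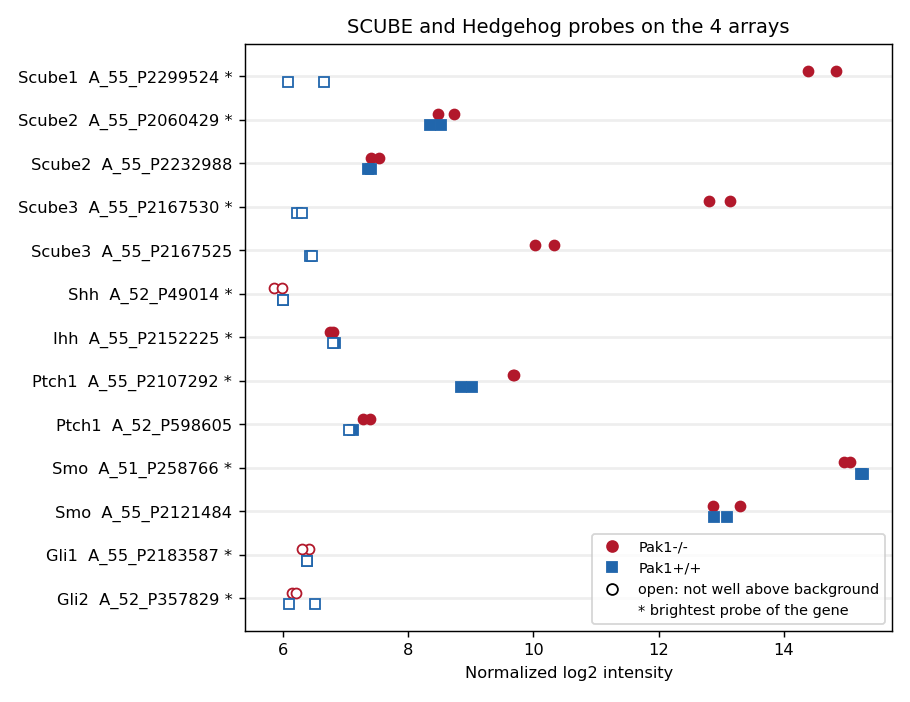
Normalized log2 intensity of the 13 SCUBE and Hedgehog probes on the 2 Pak1-/- arrays (red circles) and the 2 Pak1+/+ arrays (blue squares), where open symbols mark spots not well above background and an asterisk the brightest probe of a gene. Scube1 and both Scube3 probes are filled in Pak1-/- and open in Pak1+/+, and Shh, Gli1 and Gli2 are open on all 4 arrays; levels of different probes are not comparable with each other.

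The rest of the pathway was examined through 51 further genes grouped by role, of which 47 could be tested. Of these, 16 were higher in Pak1-/- cells, 16 were lower and 15 were not called, with a median difference of -0.09. The share called was 68.1%, beside 51.0% of all genes (22.8% higher and 28.2% lower). By role it was 50% for ligand handling and for receptors, 66.7% for transduction and for the cilium, and 90% for GLI targets. Disp2, Evc, Foxf2 and Foxl1, all counted as lower, passed the filter only through the Pak1+/+ arrays. Their adjusted p-values, given below, therefore add no support to their bounds. With signal required on all 4 arrays 16 genes were higher and 11 lower. Lrp2, Hhip, Ccnd2 and Foxf1 had no signal well above background on the 4 arrays.

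In the group that makes, releases or binds the ligand outside the cell, 1 of 6 genes was higher and 2 were lower. Dhh, the third Hedgehog ligand, gave log2 intensities of 8.38 and 8.67 in Pak1-/- samples and of 10.90 and 10.94 in Pak1+/+ samples. It was above background in every sample, unlike Shh, and it fell by 2.39 on the log2 scale (SE 0.12, limma adjusted p = 0.00030). Disp2, a relative of the Dispatched protein that releases the ligand, was not well above background in Pak1-/- cells and was at least 2.17-fold lower there (adjusted p = 0.00055). Hhat, which attaches palmitate to the ligand, was 0.63 higher (SE 0.14, adjusted p = 0.018), but its second probe differed by -0.12 and was not called, and the call was lost in 4 of 18 alternatives, among them without Pak1+/+ replicate 1 (adjusted p = 0.065). Disp1, the main ligand releasing protein, differed by 0.22 (SE 0.11) and was not called.

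Among the receptors and coreceptors, 2 of the 4 genes that could be tested were higher and none was lower. Boc, a coreceptor that binds the ligand together with Ptch1, gave 10.80 and 10.57 in Pak1-/- samples and 7.09 and 7.67 in Pak1+/+ samples. It rose by 3.30 (SE 0.22, adjusted p = 0.00063), with both Pak1-/- samples far above the Pak1+/+ samples. Cdon, the coreceptor related to Boc, was 0.45 higher with 1 probe and 0.43 higher with the other (adjusted p = 0.0086 and 0.0088), and without Pak1+/+ replicate 1 the first call was lost (adjusted p = 0.0503). Gas1, another coreceptor, differed by -0.20 and was not called.

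Of the 18 genes that carry or restrain the signal between Smo and the targets, 6 were higher and 6 were lower. The list mixes both kinds, so these counts give no direction of signalling. Gli3, which acts mostly as a repressor of the targets, gave 11.60 and 11.53 in Pak1-/- samples against 10.01 and 9.99 in Pak1+/+ samples. It was thus well above background, in contrast to Gli1 and Gli2, and it was 1.57 higher in Pak1-/- cells (SE 0.07, adjusted p = 0.00025). Sufu, which holds the GLI proteins in the cytoplasm, rose by 0.42 (adjusted p = 0.0076), and Gpr161, a ciliary receptor that raises cAMP, by 0.52 (adjusted p = 0.0038). Gsk3b and Btrc, which take part in processing of the GLI proteins, rose by 0.97 and 0.34 (adjusted p = 0.0057 and 0.021), the latter call being lost in 7 of 18 alternatives. The second Btrc probe differed by -0.16. Stk36, the fused kinase homologue, was 0.75 higher (adjusted p = 0.0023).

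The largest differences in this group were those of Evc and Evc2, which encode partner proteins that sit at the base of the cilium and pass the signal on from Smo. Evc2 gave log2 intensities of 6.75 and 6.57 in Pak1-/- samples and of 12.61 and 12.64 in Pak1+/+ samples. It fell by 5.96 (SE 0.09, adjusted p = 4.2e-05) and was well above background on only 1 of the Pak1-/- arrays. Its second probe, dim on both Pak1-/- arrays, was at least 2.28-fold lower. The brighter Evc probe gave 6.36 and 6.61 against 10.04 and 9.89. It was not well above background on either Pak1-/- array and was at least 10.2-fold lower there (adjusted p = 0.00013). A second, dimmer Evc probe, well above background on 1 array of each group, differed by -0.34 and was not called. Over the alternatives the difference of Evc2 ran from -7.71 to -3.85 and that of Evc from -6.43 to -1.91. The means over probes gave the smallest sizes. Evc and Evc2 are neighbours on chromosome 5 of the GRCm38.p6 assembly. Among the other genes of the group, Arrb2, an arrestin, fell by 0.62 (adjusted p = 0.0033), and Prkacb, a catalytic subunit of protein kinase A, which restrains the pathway, by 0.37 (adjusted p = 0.015). Dyrk2, a kinase, fell by 0.32 and Spop, which marks GLI proteins for degradation, by 0.26 (adjusted p = 0.031 and 0.036). The calls of Prkacb, Dyrk2 and Spop were lost in 5, 9 and 11 of 18 alternatives, that of Spop whichever replicate was left out, and the 2 other Spop probes differed by 0.01 and 0.09. Prkaca, the other subunit of protein kinase A measured, Csnk1a1, Kif7 and Cul3 were not called.

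Of the 9 genes that build or serve the primary cilium, 5 were higher, 1 was lower and the median difference was 0.35. Ift88 and Ift172, subunits of the transport particle that assembles the cilium, were 0.69 and 0.35 higher (adjusted p = 0.0026 and 0.016), the latter call being lost in 5 of 18 alternatives, among them 3 of the 4 that left out a replicate. Arl13b, a ciliary GTPase, was 0.66 higher, Inpp5e, a ciliary phosphatase, 0.74 higher and Rpgrip1l, a transition zone protein, 0.60 higher (adjusted p = 0.0026, 0.0019 and 0.0034). Ofd1, a protein of the basal body, fell by 0.29 (adjusted p = 0.039), a call that was lost in 11 of 18 alternatives. Kif3a, a subunit of the transport motor, was not called with its brighter probe (-0.09), while its second probe fell by 0.43 (adjusted p = 0.0099). All 9 were above background in every sample. The 3 probes of Inpp5e did not agree, since 1 of them differed by -0.04.

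Of the 10 GLI target genes that could be tested, 2 were higher and 7 were lower. Over all genes tested, 22.8% were higher and 28.2% were lower. The median difference of the targets was -0.78, or -0.67 with Foxf2 and Foxl1, which were dim in Pak1-/- cells, at their bounds. Of the 8 targets above background on every array, 2 were higher and 5 were lower. Ccnd1, which encodes cyclin D1, gave 15.83 and 15.97 in Pak1-/- samples against 17.31 and 17.18 in Pak1+/+ samples. It fell by 1.34 (SE 0.09, adjusted p = 0.00069). Sfrp1, a secreted Wnt inhibitor, fell by 1.42 (SE 0.15, adjusted p = 0.0021), and Mycn, the N-myc transcription factor, by 0.86 (SE 0.07, adjusted p = 0.0011). The forkhead genes Foxl1 and Foxf2 were not well above background in Pak1-/- cells and were at least 2.31-fold and 1.56-fold lower. Their adjusted p-values (0.010 and 0.00068) come from a filter passed only through the Pak1+/+ arrays. Foxc2 fell by 0.70 (adjusted p = 0.0032). The Foxl1 call was lost without Pak1-/- replicate 1 (adjusted p = 0.070). Jag2, a Notch ligand, fell by 0.27 (adjusted p = 0.048), a call that was lost in 10 of 18 alternatives and whichever replicate was left out. Osr1, a zinc finger factor, was 0.76 higher and Bcl2, an inhibitor of apoptosis, 0.48 higher (adjusted p = 0.0017 and 0.045), the latter call being lost in 10 of 18 alternatives. These genes have other regulators as well, so the list does not read out GLI activity by itself. Among the members, Ptch1 and Gli1 are targets too: Ptch1 was higher, and Gli1 was too dim to be tested.

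**Figure D3:**
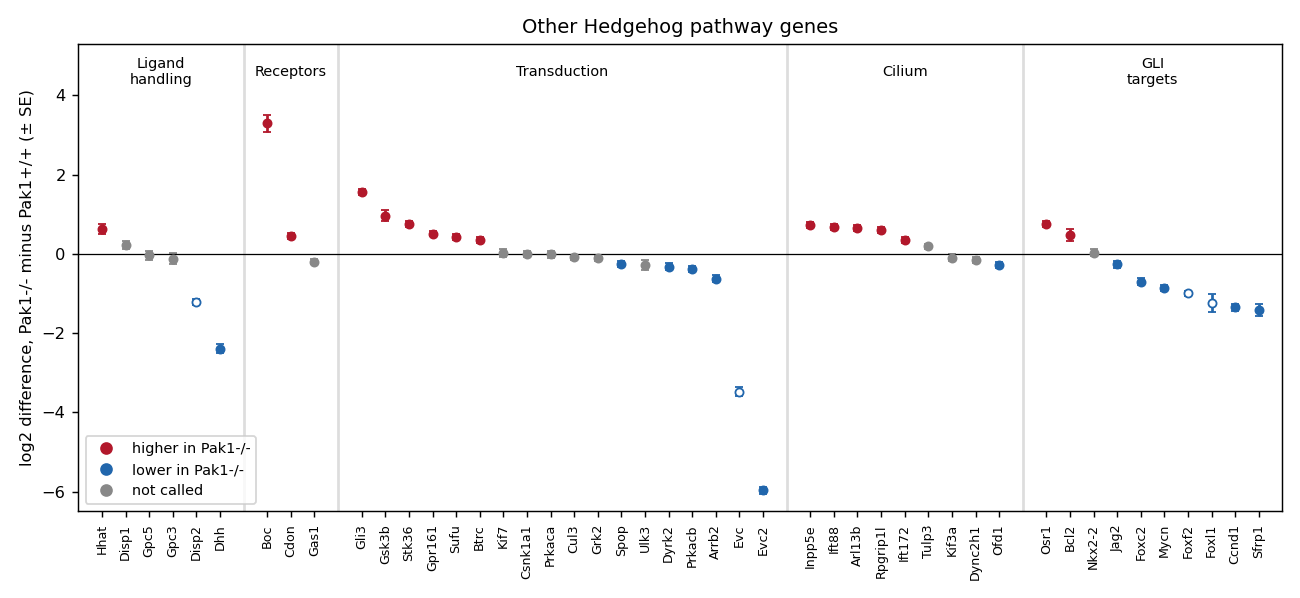
The log2 difference between Pak1-/- and Pak1+/+ cells (mean of 2 samples minus mean of 2 samples, bars ± SE from limma) for the other Hedgehog pathway genes that could be tested and are reported here, ordered within each role by the difference. Open symbols mark genes whose brightest probe was not well above background in Pak1-/- cells, so that its level there is only a limit. Boc at 3.30 and Gli3 at 1.57 are the highest points, and Evc2 at -5.96 and Evc at -3.48 the lowest. Of the 10 GLI targets 7 are lower in Pak1-/- cells, where 28.2% of all genes tested are lower.

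The genes whose values over the 4 arrays were most like those of Scube1 were found by the root mean square difference between probes, each centred on its own 4-array mean, over 21947 genes. They were Oas2 (0.24 on the log2 scale), Ifit3 (0.30), I830012O16Rik (0.44), Trim12 (0.50) and Oas1a (0.52). Oas2 gave 15.64 and 15.42 in Pak1-/- samples and 7.50 and 7.54 in Pak1+/+ samples, and Ifit3 gave 15.14 and 14.84 against 7.04 and 7.61. Oas2, Ifit3 and Oas1a are known as interferon-induced genes. With 4 arrays in 2 groups the measure mostly reflects the size of the genotype difference, and the distances are approximate, since Scube1, I830012O16Rik and Trim12 were not above background on the Pak1+/+ arrays.

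**Figure D4:**
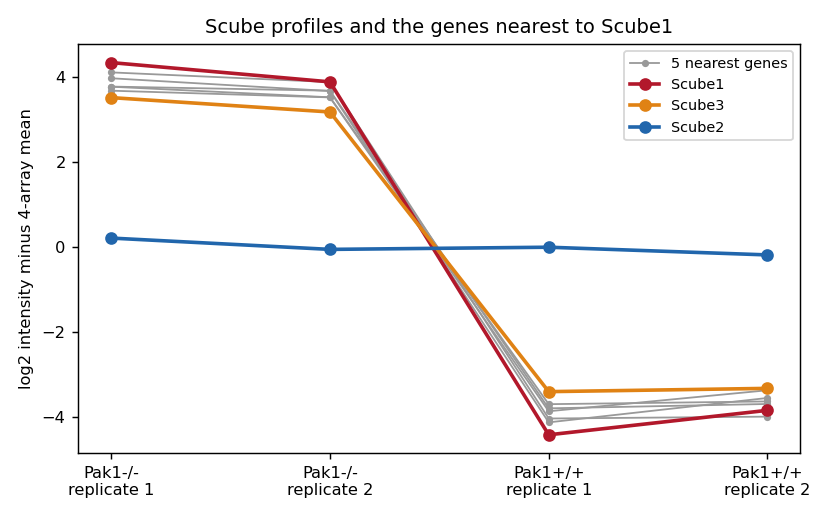
Log2 intensity minus the 4-array mean for Scube1, Scube3, Scube2 and the 5 genes nearest to Scube1 (grey) on each of the 4 arrays, with lines joining the values of a gene. Scube1, Scube3 and the grey genes are all high on the 2 Pak1-/- arrays and low on the 2 Pak1+/+ arrays, while Scube2 stays near 0.

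Since Scube1 and Scube3 had the same pattern, their promoters were compared, from 250 bases before to 50 bases after the start site, as given by RefSeq for GRCm38.p6. The first is Scube1 (chr15:83724990-83725289, minus strand) and the second Scube3 (chr17:28142059-28142358, plus strand), and capitals mark a match to GAAANNGAA, a core of the interferon-stimulated response element.
Scube1: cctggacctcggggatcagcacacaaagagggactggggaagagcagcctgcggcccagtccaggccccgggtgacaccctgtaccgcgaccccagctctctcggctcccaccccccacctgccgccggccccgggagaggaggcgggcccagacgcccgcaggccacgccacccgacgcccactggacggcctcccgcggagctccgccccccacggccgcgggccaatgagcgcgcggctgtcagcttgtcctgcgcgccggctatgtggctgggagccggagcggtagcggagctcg
Scube3: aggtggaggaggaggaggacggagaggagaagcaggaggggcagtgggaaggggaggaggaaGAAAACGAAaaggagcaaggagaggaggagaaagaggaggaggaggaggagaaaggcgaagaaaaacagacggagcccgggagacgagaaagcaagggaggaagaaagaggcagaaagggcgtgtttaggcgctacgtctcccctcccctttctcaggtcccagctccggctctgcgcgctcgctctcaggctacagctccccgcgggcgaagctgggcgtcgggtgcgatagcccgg
The Scube1 promoter was rich in CG dinucleotides (32, where the median promoter has 7) and had a GC content of 75%. That of Scube2 was alike in this respect, with 36 CG dinucleotides and 75.3%, although Scube2 did not share the difference between the groups. The Scube3 promoter held 20 CG dinucleotides, and 74% of its 250 bases before the start were purines, against 48% in Scube1. It held 1 match to GAAANNGAA on the forward strand, a motif found on either strand in 8.56% of the 32851 promoters of this length, where the Scube1 and Scube2 promoters held none and that of Ihh held 1 on the reverse strand. The GLI motif GACCACCCA, found on either strand in 0.253% of promoters, was in none of the 7 member promoters in the table, which are those of Scube1, Scube2, Scube3, Ihh, Ptch1, Smo and Gli2. A match is only a stretch of letters, and its absence concerns these windows alone.

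No tested chromosomal neighbour of Scube1 or Scube3 differed as widely as they did. Of the 8 tested genes among the 5 on either side of Scube1, 4 were higher and 1 was lower, with differences from -0.82 to 2.65. Of the 10 around Scube3, 2 were higher and 3 were lower, from -0.36 to 2.03. Over all genes tested, 22.8% were higher and 28.2% were lower. Scube1 and Scube3 had ranks 1 and 19 from the highest difference among 21961 genes, so nearly any neighbour would lie below them. The highest neighbours, Pnpla3 and Def6, were thus under the bounds of Scube1 and Scube3, which are 7.75 and 6.11 on the log2 scale.

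Several facts of the whole data set bear on these values. The signal was well above background for 62.2% to 70.4% of the probes of each array, and replicates within a group correlated at 0.997 across probes. Epithelial markers were above background on all 4 arrays for 7 of 8 genes, of which Krt8, Krt18, Krt5, Krt14 and Cdh1 were higher in Pak1-/- cells (by 0.27 to 2.83), Erbb2 fell by 0.31, and Epcam was not called (-0.23). Krt19, the remaining marker, was not called either (-0.64). Of the endothelial markers, in whose cells Scube1 is best known, 3 of 8 were above background on all arrays, none was called by its brightest probe, a second, dimmer Kdr probe was at least 2.17-fold higher in Pak1-/- cells, and Tek, Emcn, Cldn5 and Tie1 were dim on all arrays. The summed level of this list, on the linear normalized scale, was 10419 to 10771 in Pak1-/- and 9546 to 11299 in Pak1+/+ samples. That sum is mostly the level of the brighter Kdr probe (log2 means of 13.17 and 13.13), so it says little of the other markers. Of the platelet markers 2 of 6 were higher and 1 was lower by the brightest probe, where 51.0% of all genes tested were called. Their summed level was 10090 to 13524 against 8028 to 8798. It is mostly the level of 1 Itgb3 probe that was not called (0.53, adjusted p = 0.065). A second, dimmer Itgb3 probe was called higher (0.48, adjusted p = 0.039). Pf4 and Gp9 were not well above background in Pak1+/+ cells. For fibroblast markers, of which 3 of 10 were above background on all arrays, the sum was 2477 to 3689 against 1383 to 1993, with Postn at least 10.4-fold higher, Col1a1 1.12 higher, Pdgfra, Col1a2 and Fap not called (-0.16, 0.03 and 0.24) and Pdgfrb, Col3a1, Dcn and Lum dim on all arrays. For leukocyte markers, of which 5 of 7 were above background on all arrays, it was 52141 to 74807 against 43314 to 47806, which is mostly the level of 1 Itgam probe. Among the 5 that were tested none was higher and 1 was lower, Ptprc, which fell by 0.45 (adjusted p = 0.0056), and Lyz2 was dim on all arrays. The part of other cell types in the member values was not tested, and in bulk RNA more cells of a type and more RNA per cell cannot be told apart.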

How the data were processed

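Total RNA of the 4 samples (0.5 ug each) was labelled with Cy3. Spot intensities on a linear scale, read with Feature Extraction 9.5.3.1 per the file headers, were deposited for each array without scaling across arrays. A deposited table of the authors' log2 values (normexp, quantile normalized) served as an alternative. Here normexp, quantile normalization and the limma fit, which the study's methods name, were repeated with limma 3.58.1 in R 4.3.3. The steps were normexp with an offset of 50 on all spots, removal of control spots (43020 left), log2, quantile normalization, removal of outlier spots and averaging per probe. Offset, filter, removal of spots and averaging were set here. The fit took probes with signal well above background on 2 or more of the 4 arrays (27229 of 39429) with genotype as the only term (lmFit, eBayes, Benjamini-Hochberg, threshold 0.05), and the fit was tested on simulated data. Each gene is represented by its brightest probe. Where a group was dim on both arrays, its mean was replaced, array by array, by the probe's value or, if higher, the lowest signal of the probes above background, which gives the "at least" ratios. The offset understates differences of dim probes. All arrays lay on 1 slide, with the Pak1-/- arrays at the first positions, so position and genotype cannot be told apart. The number of arrays limits the precision, and p-values measure only the spread between these samples. Named genes were all member probes, the pathway genes that were called, differed by at least 1 on the log2 scale or were dim on all arrays, Pak1, and the 5 genes most like Scube1; other genes named were chosen after their values were seen. Alternatives covered the offset, background correction, scaling, filter, choice and naming of probes, threshold, left-out replicates and a replicate block. The members, lists and motifs were chosen with earlier results of these data known. Coordinates of probes are those of the files (mm9), and promoter sequences are from RefSeq (GRCm38.p6), where 7 of the 9 members had an entry. The values of 1 pathway gene, which is part of the counts, are not reported here. Human samples of the study were not analysed here.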

Additional observations from a re-analysis of the deposited data

How the results depend on the processing

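No difference of the member genes tested, the other pathway genes called or Pak1 changed direction under the alternatives run. Markers and chromosomal neighbours were not run under them. The number of probes called (14132) became 8878 at an adjusted p of 0.01 and 3413 with a 2-fold minimum, and 10307 to 12164 when 1 replicate was left out. The Scube1 bound of 215-fold became 378 with no offset, 304 with an offset of 16 and 473 with the processed signal scaled to the 75th percentile, and 183 to 251 without 1 replicate; the Scube3 bound became 121, 97.3 and 141 in the first 3. The Scube3 difference of 6.71 was 9.46 with the processed signal and fell to 3.98 in the authors' table and 3.73 with naming by RefSeq accession, where the dimmer probe stands for the gene, and to 5.22 as the mean over probes. The number of member genes called higher (3) became 1 when signal was required on all 4 arrays, since Scube1 and Scube3 then drop out. It became 2 with a 2-fold minimum, where Ptch1 (0.75) lost its call. The number called lower (1, Smo) became 0 with no offset, an offset of 16, cyclic loess, the authors' table, no filter, the mean over probes, an adjusted p of 0.01, a 2-fold minimum and the replicate block, and was 0 whichever replicate was left out. Among the other pathway genes, 16 higher became 2 and 16 lower became 7 with a 2-fold minimum, and 16 lower became 10 at an adjusted p of 0.01; with signal on all 4 arrays they were 16 and 11, and without 1 replicate 11 to 15 and 11 to 13. The Pak1 difference passed the threshold under cyclic loess (0.27, adjusted p = 0.027) and was 0.17 to 0.21 without 1 replicate. With cyclic loess 52.4% of called probes were higher, against 44.9% with quantile normalization. Samples of the same replicate number are not paired (correlation of their deviations -0.03 across probes); with the replicate block, 13211 probes, 3 member genes higher, and 16 higher and 12 lower pathway genes were called. Over the 6 member genes tested and the 32 other pathway genes called, 573 differences kept their side of the threshold and 103 lost their call, most often Smo (13), Ofd1 (11), Spop (11), Bcl2 (10) and Jag2 (10). The cause of these changes was not tested.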
